A study of Mus musculus with 8 samples.

Results

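The caspases, gasdermin D, MLKL and IL-18 are parts of the machinery by which mouse cells die, and 8 of their genes were followed by name: Casp1, Casp4, Casp12, Casp6, Casp9, Gsdmd, Il18 and Mlkl. They are 8 of the 45556 named genes in the deposited table, they were picked by name and not by their values, and all 8 have a row. The cells were B16F10, a mouse melanoma line from the C57BL/6 strain, carrying a hairpin against Drg2 (shDRG2) or the vector pLKO. The Drg2 protein is a GTPase of the DRG family. Each line was given 5 ng/ml of the recombinant mouse cytokine interferon-gamma (IFN-γ) over 24 h or left without it, which makes the 4 groups shDRG2 with IFN-γ, shDRG2 without, pLKO with IFN-γ and pLKO without, with 2 libraries each. The labels do not say whether the shDRG2 line was 1 clone or a pool, nor whether the 2 libraries of a group came from different cultures, so each p-value reflects only the spread between these libraries, and that spread may be technical.

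Caspases are proteases that cut after aspartate. Casp1 and Casp4 encode inflammatory caspases: caspase-1 is activated on inflammasomes by way of the adaptor ASC and matures IL-1β and IL-18, while caspase-4 (caspase-11 in the older mouse literature) senses cytosolic lipopolysaccharide, and both cut gasdermin D, whose freed end makes pores in the plasma membrane, the step that defines pyroptosis. Casp12 lies beside them and encodes a caspase first studied in endoplasmic reticulum stress. Casp9 encodes the initiator caspase of the apoptosome and Casp6 an executioner caspase that cuts nuclear lamins. Mlkl encodes the pseudokinase that RIPK3 phosphorylates to open the membrane in necroptosis. IFN-γ is known to raise several of these genes in other cell types, and the palindromic gamma-activated site is a DNA element known from IFN-γ-responsive genes.

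Library totals ran from 25422758 to 36654519 counts. Drg2 was at 6.46 and 7.66 CPM (counts scaled to a common library size) in shDRG2 cells with IFN-γ and 8.68 and 9.34 CPM without, against 72.3 and 64.3 CPM in pLKO cells with IFN-γ and 76.3 and 68.6 CPM without. All 8 melanocytic markers were detected in every group, with a summed level of 9701 to 15213 CPM per library. The sum was 9701 to 10208 CPM in shDRG2 cells with IFN-γ and 14093 to 15213 CPM in shDRG2 cells without, and 11056 to 11165 CPM in pLKO cells with IFN-γ and 13127 to 13276 CPM in pLKO cells without. The 10 myeloid markers, a cell type rich in inflammatory caspases, summed to 1.61 to 2.03 CPM in shDRG2 cells with IFN-γ and 0.814 to 1.09 CPM in shDRG2 cells without, and to 2.04 CPM in both pLKO libraries with IFN-γ and 1.01 to 1.41 CPM in pLKO libraries without. Of the 10, Adgre1, Itgam, Fcgr1 and Tyrobp were at 0 in all 8 libraries. The highest of the 10 in shDRG2 cells was Cd14, at a mean of 1.02 CPM with IFN-γ and 0.310 CPM without. In pLKO cells the highest was Cd68, at 0.964 CPM with IFN-γ and 0.666 CPM without. The fibroblast markers, mainly Col1a2, summed to 4.20 to 5.74 CPM in shDRG2 cells with IFN-γ and 18.0 to 19.5 CPM without, and to 5.67 to 5.70 CPM in pLKO cells with IFN-γ and 15.8 to 18.9 CPM without. The endothelial markers, mainly Vwf, summed, in the higher library of each group, to 0.700 CPM in shDRG2 cells with IFN-γ and 5.97 CPM without, and to 0.667 CPM in pLKO cells with IFN-γ and 2.16 CPM without. The T and NK cell and the epithelial lists each summed to at most 0.688 CPM in a library. The part of these marker shifts in the IFN-γ results was not tested. In bulk RNA, fewer cells of a type and less RNA per cell cannot be told apart.

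The start regions of 4 of the genes are shown because they hold the sharpest contrast among the responses described below: Casp12 and Casp4, 2 neighbours that had almost no counts without IFN-γ, Mlkl, which had counts in every library, and Casp9, which was not called after IFN-γ. The windows run from 250 bases before to 50 after the gene start (RefSeq, build GRCm38.p6), at chr9:5345226-5345525 on the plus strand for Casp12, chr9:5308599-5308898 on the plus strand for Casp4 (the first of 2 overlapping windows), chr8:111338156-111338455 on the minus strand for Mlkl and chr4:141793362-141793661 on the plus strand for Casp9, each written 5′ to 3′ with matches to the gamma-activated site in capitals.
Casp12: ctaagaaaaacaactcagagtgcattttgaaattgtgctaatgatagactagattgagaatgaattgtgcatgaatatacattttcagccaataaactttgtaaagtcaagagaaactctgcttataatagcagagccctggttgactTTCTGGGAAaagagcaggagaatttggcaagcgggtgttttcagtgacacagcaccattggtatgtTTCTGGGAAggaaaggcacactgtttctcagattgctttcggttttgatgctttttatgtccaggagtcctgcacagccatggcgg
Casp4: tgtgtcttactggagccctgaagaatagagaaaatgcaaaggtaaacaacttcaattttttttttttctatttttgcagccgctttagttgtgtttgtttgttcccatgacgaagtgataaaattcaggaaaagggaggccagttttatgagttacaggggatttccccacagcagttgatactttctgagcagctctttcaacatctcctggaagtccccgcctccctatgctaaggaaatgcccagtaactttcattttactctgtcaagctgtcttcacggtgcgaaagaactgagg
Mlkl: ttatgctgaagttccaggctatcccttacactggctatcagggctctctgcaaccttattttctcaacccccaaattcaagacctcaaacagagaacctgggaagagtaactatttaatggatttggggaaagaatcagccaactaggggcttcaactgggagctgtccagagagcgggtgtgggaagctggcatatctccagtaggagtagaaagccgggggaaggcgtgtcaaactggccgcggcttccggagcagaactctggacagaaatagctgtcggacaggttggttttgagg
Casp9: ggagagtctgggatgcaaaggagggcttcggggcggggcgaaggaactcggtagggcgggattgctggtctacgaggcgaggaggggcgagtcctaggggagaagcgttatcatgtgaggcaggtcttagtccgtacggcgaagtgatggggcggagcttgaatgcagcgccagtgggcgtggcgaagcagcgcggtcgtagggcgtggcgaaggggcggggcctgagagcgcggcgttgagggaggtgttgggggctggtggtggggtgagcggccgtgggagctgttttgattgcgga
The letters searched on both strands were TTCNNNGAA, the gamma-activated site, which reads the same on both, and GAAANNGAA, a core of the interferon-stimulated response element. The Casp12 window holds TTCTGGGAA at 2 places, from -102 to -94 and from -36 to -28 relative to the RefSeq start. The GENCODE annotation, used for the gene positions below, starts Casp12 at chr9:5345430, between the 2 places. By that annotation the second place lies inside the gene. No match to either was found in the windows of Casp1, Casp4, Casp6, Casp9, Mlkl and Il18, so 1 of the 7 genes with a RefSeq window had a match, and Gsdmd has no window. The Il18 window, chr9:50554450-50554749, ends before the GENCODE start of Il18 at chr9:50554827. Of all 32851 windows of the same length, 8.30% hold the gamma-activated site at least once, 0.457% hold it in 2 or more places, and 8.56% hold the response element core. A match to either was found in 15.8% of these windows, so 1 of the 7 genes is near that share. A match of letters describes the window and does not show binding.

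IFN-γ raised 6 of the 7 tested genes in shDRG2 cells and the same number in pLKO cells, and lowered none. The 6 were Casp4, Casp12, Casp6, Gsdmd, Il18 and Mlkl in each line, and Casp9 was not called in either. Over all 13500 tested genes, 16.2% were higher and 15.2% lower after IFN-γ in shDRG2 cells, and 15.4% were higher and 12.7% lower in pLKO cells. Casp4 and Casp12 entered the test only through their libraries with IFN-γ, since none of the 4 libraries without it reached the filter of 0.316 CPM, so they could only come out higher. The other 5 reached it in all 8 libraries, and of these 4 were called higher in each line, with a median log2 fold change of 2.02 in shDRG2 cells and 1.83 in pLKO cells, where the median of all tested genes was 0.00 and 0.01. Casp1 reached the filter in no library and was not tested.

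**Figure D1:**
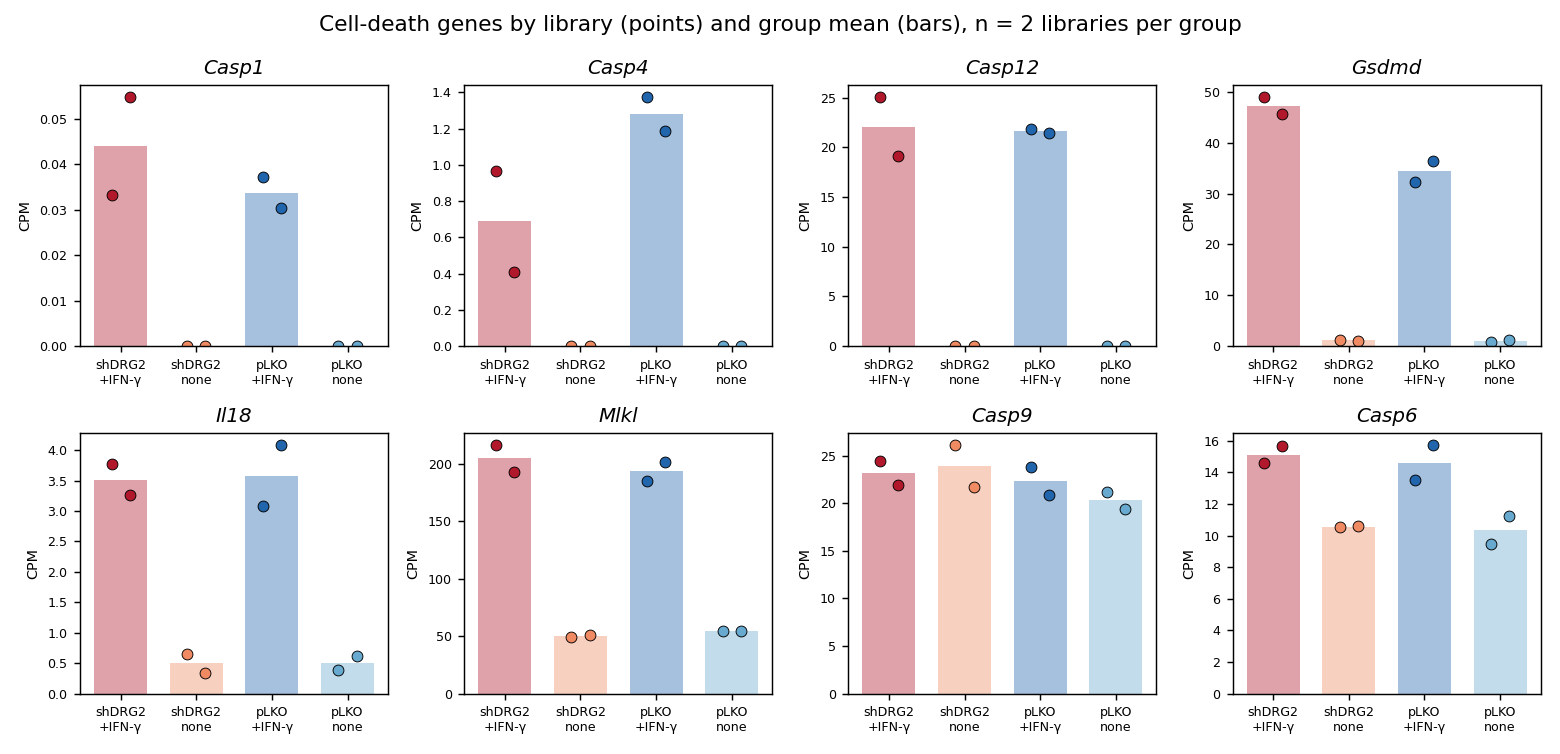
Level of each gene in CPM (y axis, from 0, its own scale in each panel) in the 4 groups (x axis), with 1 point per library and the group mean as a bar. Casp4 and Casp12 stand at or near 0 without IFN-γ in both lines, and Casp9 lies between 19.4 and 26.1 CPM in all 8 libraries.

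Among the inflammatory caspases, Casp12 showed the widest separation. It had 751 and 699 counts in shDRG2 cells with IFN-γ, against 0 and 0 counts in shDRG2 cells without. In pLKO cells it had 590 and 704 counts with IFN-γ, against 1 and 1 count without. All 4 libraries with IFN-γ were therefore high, at 19.1 to 25.0 CPM, and all 4 without it were at or next to 0. Casp12 was at least 421-fold higher after IFN-γ in shDRG2 cells, taking 3 counts over the group as the most that 0 allows (adjusted p = 3.10e-08), and in pLKO cells the ratio of scaled counts was 700.0 with a 95% counting interval of 193 to 5786 (adjusted p = 3.12e-08).

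Casp4 followed at a far lower level. It had 29 and 15 counts in shDRG2 cells with IFN-γ and 0 and 0 without, and 37 and 39 counts in pLKO cells with IFN-γ and 0 and 0 without. It was at least 12.8-fold higher after IFN-γ in shDRG2 cells (adjusted p = 0.00227) and at least 27.4-fold higher in pLKO cells (adjusted p = 0.000633). Casp1, the first of the cluster, had 1 and 2 counts in shDRG2 cells with IFN-γ and 1 and 1 count in pLKO cells with IFN-γ, and 0 counts in the 4 libraries without. Those numbers are at or under the 3 counts that a sum of 0 allows, so no fold is given. In the fit without a filter on low counts, Casp1 had an adjusted p of 0.511 for IFN-γ in shDRG2 cells and 0.614 in pLKO cells.

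These 3 genes sit side by side on the plus strand of chromosome 9 (mm10, the same assembly as GRCm38). Casp1 spans chr9:5298517-5307265, Casp4 spans chr9:5308828-5336783 and Casp12 spans chr9:5345430-5373032, a run of 74.5 kb with no other annotated gene in it or within 100 kb on either side. Casp4 and Casp12 lie 8.65 kb apart and Casp1 and Casp4 lie 1.56 kb apart, yet their levels differed widely: per kilobase of exon, Casp12 averaged 5.75 CPM, Casp4 averaged 0.186 CPM and Casp1 averaged 0.0294 CPM in shDRG2 cells with IFN-γ. In pLKO cells with IFN-γ the order was the same, at 5.64, 0.345 and 0.0226 CPM per kb for Casp12, Casp4 and Casp1. Shared sequence was small, with 1.98% of the 31-base words of Casp4 exons found in another gene and none of those of Casp1 or Casp12.

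Gsdmd, the pore-forming substrate of caspase-1 and caspase-4, was present at a low level without IFN-γ and rose strongly with it. It was at 48.9 and 45.7 CPM in shDRG2 cells with IFN-γ, against 1.24 and 1.01 CPM in shDRG2 cells without. It was at 32.3 and 36.5 CPM in pLKO cells with IFN-γ, against 0.856 and 1.19 CPM in pLKO cells without. The lowest library with IFN-γ stood far above the highest without it. The log2 fold change was 5.38 (SE 0.158, 41.5-fold, adjusted p = 2.29e-09) in shDRG2 cells and 5.07 (SE 0.159, 33.6-fold, adjusted p = 3.69e-09) in pLKO cells. Gsdmd lies at chr15:75862327-75867408 on the plus strand.

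Il18 encodes a cytokine of the IL-1 family that caspase-1 matures. It was at 3.76 and 3.25 CPM in shDRG2 cells with IFN-γ and 0.653 and 0.349 CPM in shDRG2 cells without, and at 3.08 and 4.08 CPM in pLKO cells with IFN-γ and 0.397 and 0.626 CPM in pLKO cells without. The groups with and without IFN-γ did not overlap in either line. The log2 fold change was 2.77 (SE 0.339, 6.80-fold, adjusted p = 0.000144) in shDRG2 cells and 2.80 (SE 0.334, 6.99-fold, adjusted p = 0.000139) in pLKO cells. Il18 lies on the same chromosome as the caspase cluster but far from it, at chr9:50554827-50581840.

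Mlkl, the executioner of necroptosis, had the highest level of the 8 in every group. It was at 216 and 193 CPM in shDRG2 cells with IFN-γ and 49.8 and 51.2 CPM in shDRG2 cells without, and at 185 and 201 CPM in pLKO cells with IFN-γ and 54.9 and 54.2 CPM in pLKO cells without. The log2 fold change was 2.02 (SE 0.0854, 4.05-fold, adjusted p = 3.93e-08) in shDRG2 cells and 1.83 (SE 0.0846, 3.54-fold, adjusted p = 9.05e-08) in pLKO cells. The gene lies at chr8:111311797-111338177 on the minus strand.

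The apoptotic caspases had the smallest log2 fold changes of the 7 tested genes after IFN-γ. Casp6 (chr3:129901425-129914103, plus strand) was at 14.6 and 15.7 CPM in shDRG2 cells with IFN-γ and 10.5 and 10.6 CPM in shDRG2 cells without, and at 13.5 and 15.7 CPM in pLKO cells with IFN-γ and 9.47 and 11.2 CPM in pLKO cells without. Its log2 fold change was 0.52 (SE 0.127, adjusted p = 0.0105) in shDRG2 cells and 0.50 (SE 0.127, adjusted p = 0.0142) in pLKO cells. Both calls were lost when certain libraries were left out. In shDRG2 cells the log2 fold change was 0.47 (adjusted p = 0.0643) without the second library with IFN-γ and 0.52 (adjusted p = 0.0540) without the first unstimulated library. In pLKO cells it was 0.38 without the second library with IFN-γ (adjusted p = 0.115) and also 0.38 without the first unstimulated library (adjusted p = 0.116). Casp9 (chr4:141793612-141815976, plus strand) was at 24.5 and 21.9 CPM in shDRG2 cells with IFN-γ and 26.1 and 21.7 CPM in shDRG2 cells without, and at 23.8 and 20.9 CPM in pLKO cells with IFN-γ and 21.2 and 19.4 CPM in pLKO cells without. Its values overlapped between the groups in shDRG2 cells and also in pLKO cells, with log2 fold changes of -0.05 (95% interval -0.31 to 0.21, adjusted p = 0.792) and 0.14 (95% interval -0.13 to 0.40, adjusted p = 0.444). Of Casp9 exon bases, 1.81% overlap Cela2a and Ctrc on the other strand.

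**Figure D2:**
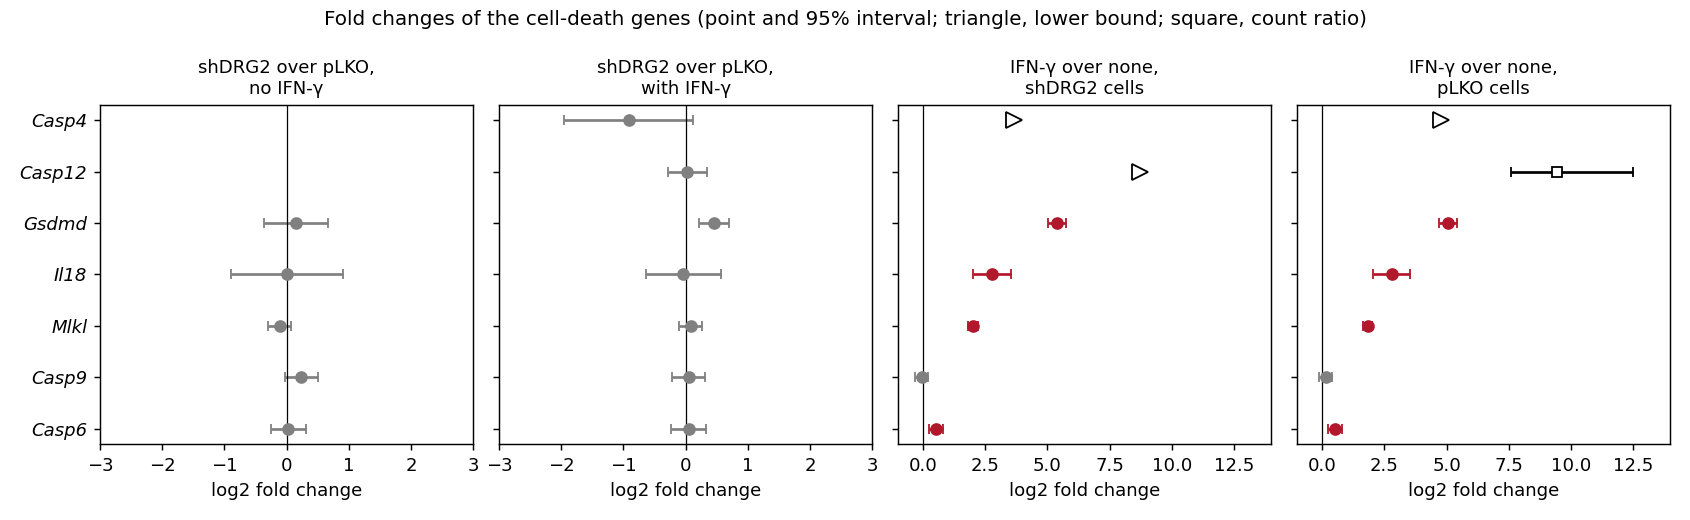
Log2 fold change (x axis) of each tested gene (y axis) in the 4 comparisons, where points are the fitted value with its 95% interval, red passing the adjusted threshold of 0.05 and grey not. Open triangles are lower bounds against 0 counts, the open square is the Casp12 count ratio with its 95% counting interval, and Casp4 and Casp12 have no point in the knockdown comparison without IFN-γ, where both groups are at or next to 0.

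The knockdown of Drg2 changed none of the 7 tested genes past the threshold, either without IFN-γ or with it. Over all tested genes 1.20% were called without IFN-γ and 1.67% with it, so a count of 0 among 7 is near the background. At an unadjusted threshold of 0.05, 0 of the 7 passed without IFN-γ and 1, Gsdmd, with it. The share of all tested genes at that threshold was not counted, so these counts have no background. DESeq2 called 0 and 1 of the 7 in these comparisons, and 302 and 314 genes in all. Gsdmd was at 48.9 and 45.7 CPM in shDRG2 cells with IFN-γ, against 32.3 and 36.5 CPM in pLKO cells with IFN-γ, so the libraries did not overlap. For no comparison was the share of all tested genes without overlap counted. The log2 difference of Gsdmd was 0.46 (SE 0.110, 95% interval 0.22 to 0.70) with an adjusted p of 0.0760. It passed at an adjusted p of 0.00264 without the filter on low counts and 0.0475 with DESeq2.

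Casp4 had 29 and 15 counts in shDRG2 cells with IFN-γ, against 37 and 39 counts in pLKO cells with IFN-γ. The log2 difference was -0.91 (95% interval -1.96 to 0.13, adjusted p = 0.497), and it was -1.63 without the first shDRG2 library with IFN-γ and -0.40 without the second. For the others with IFN-γ the 95% interval of the log2 difference was -0.29 to 0.34 for Casp12, -0.23 to 0.32 for Casp6, -0.21 to 0.32 for Casp9, -0.10 to 0.26 for Mlkl and -0.64 to 0.57 for Il18. With 2 libraries a group, differences inside those intervals are not excluded, and the intervals are not limits of detection. Without IFN-γ the log2 difference was 0.24 for Casp9 (95% interval -0.03 to 0.50, adjusted p = 0.450), 0.15 for Gsdmd, 0.03 for Casp6, 0.00 for Il18 and -0.11 for Mlkl. Casp12 had 0 counts in shDRG2 cells and 2 in pLKO cells without IFN-γ, and Casp4 had 0 in both, so neither has a fold.

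The IFN-γ responses of shDRG2 and pLKO cells differed past the threshold for 0 of the 7 tested genes, where 0.00741% of all tested genes, a single gene, were called. None of the 7 had an unadjusted p under 0.05 in edgeR, and the share of all tested genes under it was not counted. DESeq2 called none of the 7 tested genes, and 7 genes in all. The difference in log2 response was 0.31 for Gsdmd (95% interval -0.27 to 0.88), 0.19 for Mlkl (-0.07 to 0.45), 0.02 for Casp6 (-0.38 to 0.42), -0.04 for Il18 (-1.14 to 1.06) and -0.19 for Casp9 (-0.56 to 0.19). Casp4 and Casp12 have no estimate, since their libraries without IFN-γ are at or next to 0.

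Per kilobase of exon the 8 genes stood in 1 order with IFN-γ in both lines. In shDRG2 cells with IFN-γ the mean level was 88.8 CPM per kb for Mlkl, 19.9 for Gsdmd, 5.75 for Casp12, 4.46 for Casp9, 3.40 for Il18, 2.71 for Casp6, 0.186 for Casp4 and 0.0294 for Casp1, with no overlap of library values between neighbours. In pLKO cells with IFN-γ the same order ran from 84.0 CPM per kb for Mlkl to 0.0226 for Casp1, again with no overlap between neighbours. Without IFN-γ the levels in shDRG2 cells were 21.9 CPM per kb for Mlkl, 4.60 for Casp9, 1.89 for Casp6, 0.486 for Il18 and 0.474 for Gsdmd, and in pLKO cells 23.7 for Mlkl, 3.91 for Casp9, 1.85 for Casp6, 0.496 for Il18 and 0.430 for Gsdmd. Il18 and Gsdmd overlapped without IFN-γ in each line, so their order there is not told apart. Casp9 ranked above Gsdmd without IFN-γ and below it with IFN-γ.

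**Figure D3:**
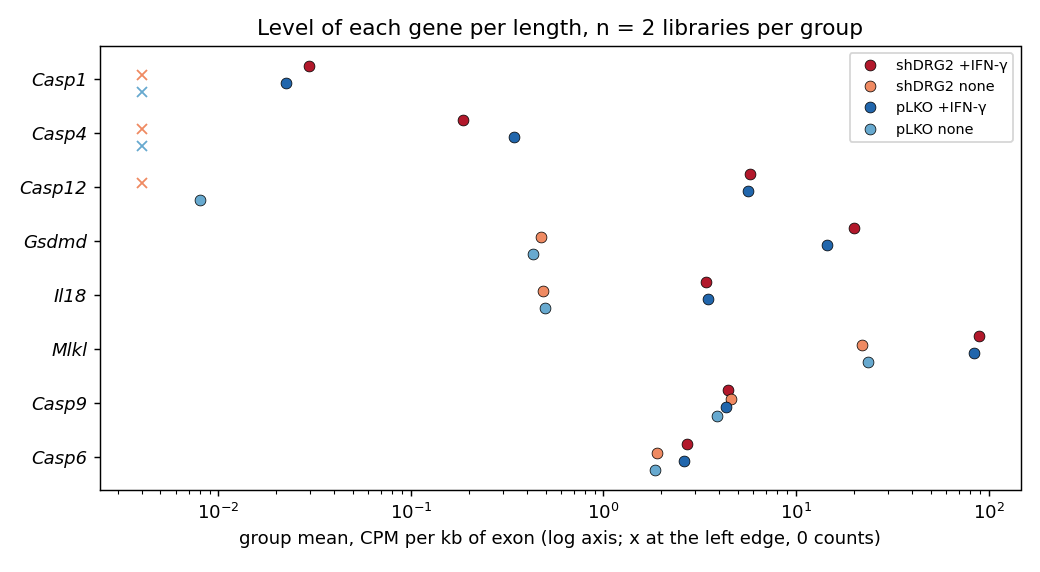
Group mean level of each gene in CPM per kb of exon (x axis, log scale) for the 4 groups, with crosses at the left edge for 0 counts. Mlkl stands highest in every group, Gsdmd is at 19.9 and 14.5 CPM per kb with IFN-γ in shDRG2 and pLKO cells and at 0.474 and 0.430 without, and Casp9 stays between 3.91 and 4.60.

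Genes whose pattern over the 8 libraries lay closest were found by the root mean square difference of centred log2 CPM. Of 13499 others, Tmem140 (0.18) was among the 2 nearest to Gsdmd. Closest to Casp12 were Gm5970 (0.27) and Irgm2 (0.27), and closest to Casp4 were Apol7a (0.20) and Zfp536 (0.29). Il18 lay nearest to Gfap (0.16) and Tmem229b (0.21), Mlkl to Rmdn3 (0.07) and Nudt13 (0.08), Casp6 to Luzp4 (0.04) and Stx4a (0.05), and Casp9 to Crat (0.02) and Bckdk (0.03). These are likenesses over 8 libraries of 1 cell line.

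Upstream of caspase-1, the list of 19 inflammasome sensors and adaptors had 10 tested genes. IFN-γ raised 4 and lowered 1 in shDRG2 cells, and raised 5 and lowered 1 in pLKO cells. Of all tested genes, 16.2% were higher and 15.2% lower in shDRG2 cells, and 15.4% higher and 12.7% lower in pLKO cells. Nlrp3, Nlrp1b, Nlrp6, Naip1 and Mefv had 0 counts in all 8 libraries, which allows up to 0.0120 CPM over the whole set. Naip5 and Naip6, sensors of bacterial flagellin, rose by 4.10 and 3.49 on the log2 scale in shDRG2 cells (adjusted p = 0.000371 and 0.00130) and by 3.57 and 3.14 in pLKO cells (adjusted p = 0.000402 and 0.00121). Naip5 and Naip6 entered the test only through their libraries with IFN-γ, so both could only come out higher. Both are counted among the genes raised in each line. Without IFN-γ the filter of 0.316 CPM was reached by 0 libraries for Naip5 and by 1 pLKO library for Naip6. The pair share 53.1% and 35.0% of their 31-base words with other genes, mostly Naip1, so how reads were split among the Naip copies is uncertain. Nek7, a kinase that binds NLRP3 and the best expressed gene not called, was at 143 and 147 CPM in shDRG2 cells with IFN-γ and 152 and 162 CPM without, and at 139 and 152 CPM in pLKO cells with IFN-γ and 133 and 144 CPM without.

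Pycard encodes ASC, the adaptor that joins inflammasome sensors to caspase-1, and it differed most between the lines of the genes on these lists. It had 1 and 1 count in shDRG2 cells with IFN-γ, against 339 and 424 counts in pLKO cells with IFN-γ. Without IFN-γ it had 0 and 0 counts in shDRG2 cells, against 113 and 100 counts in pLKO cells. No shDRG2 library came near any pLKO library, and the gene entered the test only through its pLKO libraries, so it could only come out lower in shDRG2 cells. Pycard was at least 63.6-fold lower in shDRG2 cells without IFN-γ (adjusted p = 7.38e-05), and with IFN-γ the pLKO count was 425 times the shDRG2 count after scaling (95% counting interval 117 to 3513, adjusted p = 3.91e-06). In pLKO cells the log2 fold change of Pycard after IFN-γ was 1.95 (SE 0.169, adjusted p = 2.73e-05).

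Pycard lies at chr7:127989708-127993867 on the minus strand, and 12.8% of its exon bases overlap Gm45205 on the other strand. Its neighbour Bckdk, picked after the values were seen, had 7111 and 6142 counts in shDRG2 cells with and without IFN-γ, against 5975 and 5909 in pLKO cells, summed over the 2 libraries of a group. With 1 hairpin line, an effect of the lower Drg2 level on Pycard and any other difference between the lines cannot be told apart.

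**Figure D4:**
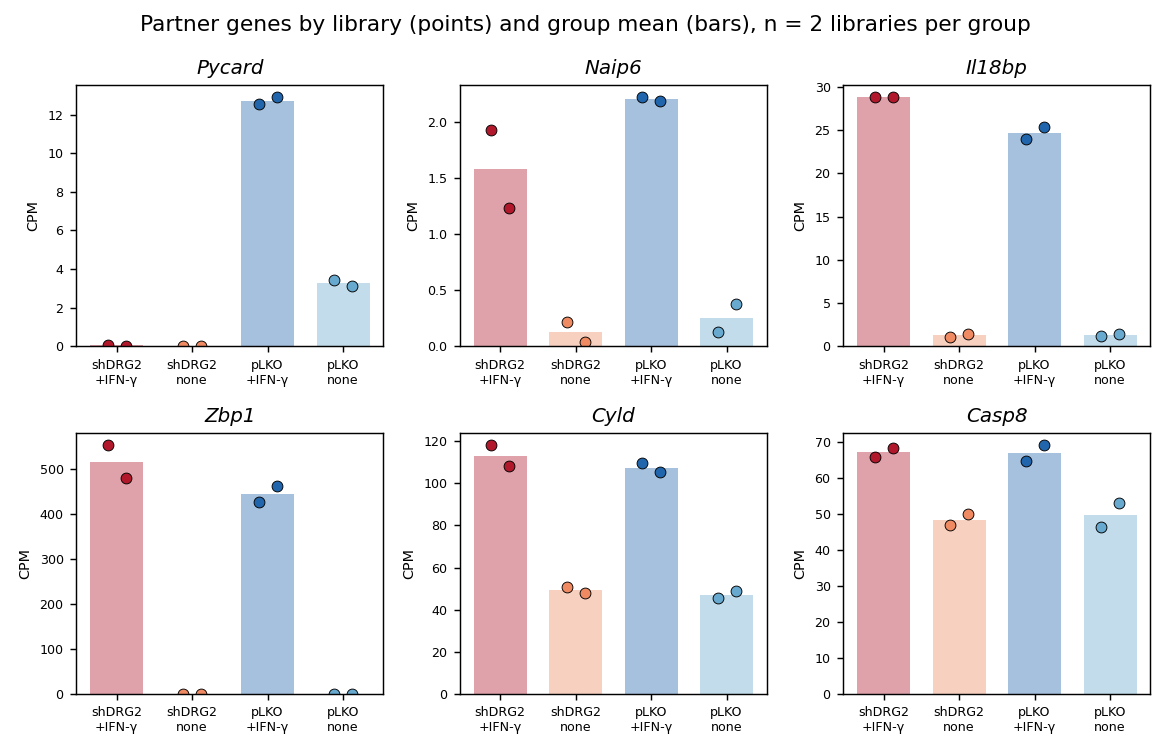
Level in CPM (y axis, from 0, its own scale in each panel) of Pycard, Naip6, Il18bp, Zbp1, Cyld and Casp8 in the 4 groups (x axis), with 1 point per library and the group mean as a bar. Pycard is at or next to 0 in the 4 shDRG2 libraries, and the other 5 genes are higher with IFN-γ than without in both lines.

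Downstream, the IL-1 family list had 3 tested genes, of which IFN-γ raised 2 in each line. The share of all tested genes raised was 16.2% in shDRG2 cells and 15.4% in pLKO cells. Il1b and Il1a, the other cytokines of this route, had 0 counts in all 8 libraries, as did the receptor genes Il1r1 and Il18r1. Il18bp, which encodes the secreted protein that binds and neutralises IL-18, was at 28.8 and 28.8 CPM in shDRG2 cells with IFN-γ and 1.06 and 1.40 CPM in shDRG2 cells without, and at 24.0 and 25.4 CPM in pLKO cells with IFN-γ and 1.16 and 1.44 CPM in pLKO cells without. Its log2 fold change was 4.57 (SE 0.154, adjusted p = 5.85e-09) in shDRG2 cells and 4.24 (SE 0.150, adjusted p = 9.44e-09) in pLKO cells. Per kilobase of exon, Il18bp averaged 9.52 CPM against 3.40 CPM for Il18 in shDRG2 cells with IFN-γ, and 8.16 against 3.47 CPM in pLKO cells with IFN-γ, without overlap of library values. Without IFN-γ Il18bp averaged 0.405 CPM per kb against 0.486 for Il18 in shDRG2 cells, and 0.430 against 0.496 in pLKO cells, where the library values overlapped. Il1rap, a shared receptor subunit, rose by 0.28 (adjusted p = 0.0299) in shDRG2 cells and by 0.58 (adjusted p = 0.000588) in pLKO cells. The shDRG2 call was lost with DESeq2, at a log2 fold change of 0.28 (adjusted p = 0.0543). It was also lost without the first library with IFN-γ, at a log2 fold change of 0.22. Without the first or the second unstimulated library it was lost at 0.28 and 0.29. Sigirr, the best expressed uncalled gene of the 3, was at 0.866 and 0.602 CPM in shDRG2 cells with IFN-γ and 1.34 and 1.43 CPM without, and at 1.19 and 0.883 CPM in pLKO cells with IFN-γ and 1.01 and 1.44 CPM without.

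IFN-γ raised 16.2% of all tested genes in shDRG2 cells and 15.4% in pLKO cells. Of the other gasdermins and membrane rupture genes, 3 were tested and IFN-γ raised 1 in shDRG2 cells and 0 in pLKO cells. That gene was Gsdmc, which encodes another pore-forming gasdermin, at 59.8 and 60.0 CPM in shDRG2 cells with IFN-γ and 45.8 and 42.3 CPM without, and at 46.1 and 47.4 CPM in pLKO cells with IFN-γ and 41.7 and 39.6 CPM without. Its log2 fold change was 0.44 (adjusted p = 0.00141) in shDRG2 cells and 0.20 (adjusted p = 0.0800) in pLKO cells, and the difference between the responses was 0.24 (95% interval 0.00 to 0.48, adjusted p = 1.00). The edgeR quasi-likelihood test gave the knockdown with IFN-γ a log2 difference of 0.36 and an adjusted p of 0.0505, and that fell under 0.05 with size factors in place of TMM (0.0476), with every gene kept (0.0108) and by DESeq2 (0.0303). Its exons share 23.9% of their 31-base words with other genes, mostly Gsdmc2. Ninj1, which encodes the protein that ruptures the membrane at the end of pyroptosis, lay between 48.9 and 58.6 CPM in all 8 libraries and was not called in any comparison.

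In the necroptosis list, IFN-γ raised 7 of 13 tested genes in each line and lowered none, and the knockdown called none. After IFN-γ 16.2% and 15.4% of all tested genes were higher and 15.2% and 12.7% lower in shDRG2 and pLKO cells. The knockdown called 1.20% of all tested genes without IFN-γ and 1.67% with it, so none of 13 is near the background. The 14th gene of the list, Ripk3, which encodes the kinase that activates MLKL, had 0 counts in all 8 libraries. Zbp1, which encodes the nucleic acid sensor that recruits RIPK3, was at 552 and 479 CPM in shDRG2 cells with IFN-γ and 0.218 and 0.116 CPM in shDRG2 cells without, and at 426 and 462 CPM in pLKO cells with IFN-γ and 0.153 and 0.219 CPM in pLKO cells without. It entered the test only through its libraries with IFN-γ, so it could only come out higher, and it is 1 of the 7 raised. Its log2 fold change was 11.51 (SE 0.187, adjusted p = 2.87e-11) in shDRG2 cells and 11.19 (SE 0.183, adjusted p = 2.94e-11) in pLKO cells. Per kilobase, Zbp1 averaged 146 CPM in shDRG2 cells with IFN-γ, above the 88.8 CPM per kb of Mlkl, and 0.0473 CPM without IFN-γ, below the 21.9 CPM per kb of Mlkl. Adar, whose product edits double-stranded RNA and restrains ZBP1, rose by 1.57 (adjusted p = 7.76e-07) in shDRG2 cells and 1.38 (adjusted p = 2.29e-06) in pLKO cells. Cyld, which encodes a deubiquitinase acting on RIPK1, rose by 1.20 (adjusted p = 1.53e-06) and 1.19 (adjusted p = 1.76e-06). Of Adar exon bases, 16.8% overlap Chrnb2 on the other strand. Hsp90aa1, the best expressed uncalled gene, lay between 1684 and 1913 CPM in all 8 libraries.

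Among the other caspases, Casp8, the initiator caspase that also holds necroptosis in check, rose by 0.47 (adjusted p = 0.00204) in shDRG2 cells and 0.43 (adjusted p = 0.00413) in pLKO cells, and the pLKO call was lost without the first library lacking IFN-γ (0.33, adjusted p = 0.0518). Casp2 lay between 45.6 and 54.3 CPM in all 8 libraries and was not called.

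Around caspase-9, all 11 apoptosome and mitochondrial factors were tested, and IFN-γ raised 3 and lowered 1 in each line, near the shares of all tested genes (16.2% higher and 15.2% lower in shDRG2 cells, 15.4% higher and 12.7% lower in pLKO cells). Birc2 and Birc3, which encode the cellular inhibitor of apoptosis proteins, rose by 0.94 (adjusted p = 0.000484) and 1.36 (adjusted p = 0.00460) in shDRG2 cells and by 0.94 (adjusted p = 0.000596) and 1.03 (adjusted p = 0.0249) in pLKO cells. Birc3 lost its pLKO call without the second library with IFN-γ (0.70, adjusted p = 0.215), without the first library lacking it (0.79, adjusted p = 0.165) and with DESeq2 (1.02, adjusted p = 0.0548). Birc5, which encodes survivin, a mitotic protein of the same family, fell by 0.74 (adjusted p = 0.00122) in shDRG2 cells and by 0.52 (adjusted p = 0.0105) in pLKO cells, and the pLKO call was lost without the second library with IFN-γ (-0.46, adjusted p = 0.0623) or the first lacking it (-0.47, adjusted p = 0.0683). Cycs, the cytochrome c gene, lay between 383 and 462 CPM in all 8 libraries.

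Among the 11 tested BCL-2 family genes, which set the threshold for releasing cytochrome c, IFN-γ raised 4 and lowered 1 in shDRG2 cells and raised 5 and lowered 0 in pLKO cells, where 16.2% and 15.4% of all tested genes were higher and 15.2% and 12.7% lower. Bid, whose product links caspase-8 to mitochondria, rose by 1.11 (SE 0.103, adjusted p = 1.86e-05) in shDRG2 cells and 1.00 (SE 0.102, adjusted p = 4.34e-05) in pLKO cells. Bak1, an effector of the outer membrane pore, rose by 0.72 (adjusted p = 0.000429) and 0.70 (adjusted p = 0.000576). Overlap with a gene on the other strand covers 17.7% of Bid and 25.5% of Bak1 exon bases. Bmf rose by 1.10 (adjusted p = 0.0138) and 1.22 (adjusted p = 0.00966). Its shDRG2 call was lost without any 1 of the 4 shDRG2 libraries, at a log2 fold change still between 1.05 and 1.18. Its pLKO call was lost without the second library with IFN-γ, at a log2 fold change of 0.94. Mcl1, the best expressed of the uncalled genes, had log2 fold changes of 0.01 in shDRG2 cells and 0.02 in pLKO cells.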

How the data were processed

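RNA of 8 B16F10 libraries, 2 in each of 4 groups, was sequenced with a TruSeq kit, and the labels give 2 read lengths and instruments without saying which applied and do not state strandedness. The authors deposited expected counts (estimated counts) per gene, not normalised, and 86.4% of nonzero values were whole to within 0.0015. STAR, Salmon 1.5.2 and mm10 are named, with no role, per the submitters' processing notes. Of 45583 entries, 27 with names turned into dates (0.204% to 0.212% of a library's counts) were left out.

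Counts were rounded and fitted by edgeR 4.0.16 (R 4.3.3) over all 8 libraries: filterByExpr (13500 genes), TMM factors of 0.973 to 1.04, 1 coefficient per group, the two-sided quasi-likelihood F test and Benjamini-Hochberg adjustment over the 13500 genes at 0.05. Adjusted p-values without another name are from this test. CPM uses TMM-adjusted totals. Where a group had 0 counts, the fold is a bound against 3 counts over the group. Ratios with 1 to 3 counts have 95% counting intervals, and bounds and intervals cover counting error only. Lengths, overlaps and positions come from GENCODE M21 (GRCm38), promoters from RefSeq. The procedure was tested on simulated data.

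All 8 genes are named. Of 8 related lists, at most the 3 called genes with the largest change and the best expressed uncalled gene are named, and the 2 genes of most similar pattern (log2 CPM, prior count 2). The genes and lists were chosen with earlier results of these data known. Alternatives were size factors or library size for scaling, no filter, DESeq2 1.42.0, a replicate block, and leaving out each library. Some results that the naming rule would give are not reported here.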

Additional observations from a re-analysis of the deposited data

How the results depend on the processing

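The count of called genes among the 8 was the same under every alternative run in 4 of the 5 comparisons, apart from leaving out libraries. For the knockdown with IFN-γ it was 0, and 1 (Gsdmd) without the filter on low counts, 1 with DESeq2 and 1 with the replicate block. Leaving out each library gave 5 to 6 called genes for IFN-γ in shDRG2 cells and 5 to 6 in pLKO cells, the one lost being Casp6, and 0 in the knockdown comparisons and for the difference between responses. Fold changes of the 7 tested genes were followed over all alternatives. Left out were Casp4 and Casp12 in the knockdown without IFN-γ and in the difference between responses, where counts were at or next to 0. Of the fold changes followed, 385 kept their side of the threshold and, where not called, lay within 1 SE of the main value. Some of these had the other sign near 0. Another 11 uncalled values moved by more than 1 SE, 3 passed the threshold newly (Gsdmd), 4 lost it (Casp6) and no call reversed. Replicate numbers are shared by the groups, and the replicate 1 minus replicate 2 differences correlated between groups at 0.107 to 0.274, but each comparison has only 2 pairs, so the numbers are not taken to pair the samples. In the replicate block fit the adjusted p was 0.0181 for Gsdmd and 0.0113 for Gsdmc in the knockdown with IFN-γ, 0.0346 for Gsdmc after IFN-γ in pLKO cells (log2 fold change 0.20), and 0.0148 for Serpinb6b and 0.0229 for Il1rap in the knockdown without IFN-γ. The replicate block raised the called genes to 673 without IFN-γ and 675 with it for the knockdown, against 162 and 226 without the block, and no filter gave 678 and 653. For IFN-γ the replicate block gave 5634 called genes in shDRG2 cells and 5166 in pLKO cells, against 4233 and 3796. DESeq2 gave 302 called genes for the knockdown without IFN-γ. Leaving out 1 library gave 27 to 167 called genes for the knockdown without IFN-γ and 44 to 202 with it, 2720 to 4297 for IFN-γ in shDRG2 cells and 2482 to 3749 in pLKO cells. For the difference between responses 1 gene was called, 7 with DESeq2, 58 without the filter and 2 with the replicate block. With the longest transcript in place of the exon union, only Il18 and Gsdmd changed places, in shDRG2 cells without IFN-γ. With 2 libraries a group, low genes such as Casp1, Casp4 and Il18 are limited by counting error as well as by spread.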

Other observations

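Among the 7 tested serpins and caspase substrates, IFN-γ raised 2 and lowered 2 in each line. With IFN-γ, 1 was lower in shDRG2 cells than in pLKO cells. Shares of all tested genes after IFN-γ were 16.2% higher and 15.2% lower in shDRG2 cells, and 15.4% and 12.7% in pLKO cells. For the knockdown with IFN-γ, 1.67% were called in either direction. Serpinb9, whose product inhibits granzyme B, was at 50.4 and 43.2 CPM in shDRG2 cells with IFN-γ and 5.44 and 3.76 CPM in shDRG2 cells without, and at 47.8 and 42.9 CPM in pLKO cells with IFN-γ and 4.95 and 4.54 CPM in pLKO cells without. Its log2 fold change was 3.33 (SE 0.158, adjusted p = 9.56e-08) in shDRG2 cells and 3.26 (SE 0.156, adjusted p = 1.15e-07) in pLKO cells. Lmnb1, a nuclear lamin gene, fell by 0.70 (adjusted p = 0.000313) and by 0.66 (adjusted p = 0.000531).

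Serpinb6b, a relative of Serpinb9, was at 1.40 and 1.04 CPM in shDRG2 cells with IFN-γ, against 3.23 and 3.20 CPM in pLKO cells with IFN-γ, and at 0.684 and 0.465 CPM in shDRG2 cells without IFN-γ, against 1.62 and 1.63 CPM in pLKO cells without. The log2 difference was -1.40 (SE 0.264, adjusted p = 0.0291) with IFN-γ and -1.47 (SE 0.304, adjusted p = 0.0504) without. As for Pycard, an effect of the lower Drg2 level and any other difference between the lines cannot be told apart. The call with IFN-γ was lost without any 1 of the 4 libraries with IFN-γ (adjusted p = 0.115 to 0.213), with a difference between -1.62 and -1.20, and the difference without IFN-γ passed when no filter was used (-1.47, adjusted p = 0.00114). IFN-γ raised Serpinb6b by 1.05 (adjusted p = 0.0264) in shDRG2 cells and 0.98 (adjusted p = 0.0163) in pLKO cells. Both calls were lost with DESeq2, at log2 fold changes of 1.07 and 0.98 (adjusted p = 0.0757 and 0.0584). The shDRG2 call was also lost without the first library with IFN-γ or the second without it (0.83 in each), and the pLKO call without any 1 of the 4 pLKO libraries (0.98 to 0.99). Serpinb6a, the best expressed uncalled gene, lay between 116 and 151 CPM in all 8 libraries.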
